A study of Mus musculus with 2 samples.

Results

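The circadian clock genes were followed in synovial myeloid cells of arthritic mice that had been pre-treated with β-glucan or with phosphate-buffered saline (PBS). The set held 10 of the 32524 genes in the count tables, namely Per1, Per2, Per3, Cry1, Cry2, Arntl, Clock, Nr1d1, Nr1d2 and Dbp. They are textbook clock genes, and the set was chosen by a reading of the β-glucan to PBS ratios of these same 2 libraries, so the ratios below describe the libraries and support no claim about the list. Both libraries held CD45+CD11b+ cells sorted from the hind paws of wild-type C57BL/6 mice, 7 to 10 weeks old at the start and kept on a 12-h light/dark cycle, with 4 mice pooled per library. One group had received 1 mg β-glucan, a glucose polymer of fungal cell walls used to induce innate immune training, and the other PBS, 7 days before arthritis was induced, and all mice were arthritic when cells were sorted at day 17. The design text names the K/BxN serum transfer model (K/BxN-STA), whereas the protocol attached to the samples describes a cocktail of arthritogenic antibodies with lipopolysaccharide. With 1 library per group there is no replicate and no test. The time of day at which each group was harvested is not given in the sources used here, so the pre-treatment and the hour of harvest cannot be told apart for these genes.

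The mammalian clock is a feedback loop of transcription. The proteins of Clock and Arntl (also called Bmal1) bind E-box elements and switch on the Per and Cry genes, whose proteins return to the nucleus and repress that same pair. A second loop runs through Nr1d1 and Nr1d2, which encode the nuclear receptors REV-ERBα and REV-ERBβ and repress Arntl, and through Dbp, a factor that binds D-box elements. Myeloid cells, macrophages included, carry a cell-autonomous clock of this kind, and Per1 is also known as a direct target of glucocorticoid and cAMP signalling.

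The filter on cells required 500 or more detected genes and no more than 10% of UMIs (unique molecular identifiers, 1 per captured transcript) from mitochondrial genes, which left 5696 of 7196 barcodes with β-glucan and 4553 of 5760 with PBS. Only 7 barcodes occurred in both libraries, 2 of them among kept cells. Clusters rebuilt from the counts, with the clock genes and the other gene lists left out of the principal components, gave a compartment of macrophage-like, antigen-presenting cell (APC)-like and monocyte-like cells that held 4597 cells (80.7%) with β-glucan and 3666 cells (80.5%) with PBS. The defining macrophage markers were all detected there, with Csf1r at 996 and 916 counts per 1000000 UMIs (CPM) and C1qa at 2529 and 2409 CPM with β-glucan and PBS. The compartment summed to 65120612 UMIs with β-glucan and 60304468 with PBS, with a median of 13034 and 15461 UMIs per cell. The median share of mitochondrial UMIs per cell was 3.14% and 3.31%. Levels below are UMIs of a gene per 1000000 UMIs of the same cells, and 95% intervals cover counting error only, not differences between mice or libraries.

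The sequences around the start sites of the 3 genes that were lower past 1.2-fold with β-glucan (Per1, Per2, Cry1) and of the third Period gene, Per3, which was not, are shown because these starts carry the classical clock elements. Each run of bases covers 250 bases before to 30 after the start of the Ensembl canonical transcript in GRCm39, so it is upstream sequence followed by the first bases of exon 1, written 5′ to 3′ on the strand of the gene. Capitals mark the E-box CACGTG, its variant CACGTT as read on either strand, and the D-box TTATGTAA.
Per1, chr11:68989018-68989297, plus strand: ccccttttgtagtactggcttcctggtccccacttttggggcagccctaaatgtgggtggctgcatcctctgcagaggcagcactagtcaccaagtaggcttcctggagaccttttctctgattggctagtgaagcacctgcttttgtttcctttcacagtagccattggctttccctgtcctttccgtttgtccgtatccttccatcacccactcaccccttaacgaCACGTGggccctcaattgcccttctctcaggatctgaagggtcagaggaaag
Per2, chr1:91387017-91387296, minus strand: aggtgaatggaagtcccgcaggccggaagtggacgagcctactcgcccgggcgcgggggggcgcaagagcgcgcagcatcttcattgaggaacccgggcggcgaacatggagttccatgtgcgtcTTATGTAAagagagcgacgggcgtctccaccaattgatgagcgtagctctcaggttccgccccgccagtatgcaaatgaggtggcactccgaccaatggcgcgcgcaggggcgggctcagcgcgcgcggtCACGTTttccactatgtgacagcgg
Cry1, chr10:85020920-85021199, minus strand: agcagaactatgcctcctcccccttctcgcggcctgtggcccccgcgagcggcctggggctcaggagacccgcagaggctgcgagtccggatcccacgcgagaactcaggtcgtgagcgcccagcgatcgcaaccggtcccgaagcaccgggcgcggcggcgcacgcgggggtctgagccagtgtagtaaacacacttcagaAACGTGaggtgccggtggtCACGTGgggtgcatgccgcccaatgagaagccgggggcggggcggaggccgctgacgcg
Per3, chr4:151129111-151129390, minus strand: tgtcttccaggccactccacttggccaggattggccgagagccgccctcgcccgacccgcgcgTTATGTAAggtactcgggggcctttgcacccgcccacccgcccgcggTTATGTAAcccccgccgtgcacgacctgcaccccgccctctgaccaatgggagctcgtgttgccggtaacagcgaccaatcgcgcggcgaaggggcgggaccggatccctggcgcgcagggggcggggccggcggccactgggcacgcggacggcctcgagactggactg

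In these windows Per1 carried an E-box at bases -22 to -17 from the start, and Cry1 an E-box at -29 to -24 with the variant at -48 to -43. Per2 carried the variant at 6 to 11 and a D-box at -125 to -118, and Per3 a pair of D-boxes at -187 to -180 and -140 to -133. Of the 31870 genes whose windows were read in the same way, 6.54% held the E-box, 4.48% the variant and 1.09% a D-box, each searched on both strands with the letters given above, and TTACGTAA counted as a D-box too. Among the other members, Cry2 and Nr1d1 held the variant (at -106 to -101 and -72 to -67), and Dbp held a ROR/REV-ERB element at -236 to -228 (ANTAGGTCA or ANTGGGTCA, found in 1.45% of windows). The full cAMP response element TGACGTCA, which also contains the shorter element TGACG, occurred in 1.85% of windows and in 0 of the 10 members, and the shorter element occurred in 18.9% of windows and in Cry1 and Cry2. The spaced glucocorticoid receptor element ACANNNTGT occurred in 6.44% of windows and in 0 members. The windows of Arntl, Clock and Nr1d2 held none of these letters. Only 280 bases at 1 start per gene were read, so elements farther away or at other starts were not searched. The Per1 window begins at base 68989018, whereas the annotated gene begins at 68986035.

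In the compartment, Per1 was lower with β-glucan by the largest margin of the 10 genes. Per1 encodes a Period protein, a repressor of Clock and Arntl that responds quickly to outside signals. Summed over the compartment, 2285 of its UMIs came from the β-glucan library and 4033 from the PBS library, or 35.1 CPM (95% interval 33.7 to 36.6) against 66.9 CPM (64.8 to 69.0). The log2 ratio of β-glucan over PBS was -0.93 (-1.01 to -0.86), so the level with PBS was 1.91 times that with β-glucan. Of the 9809 genes that averaged 5 CPM or more over both compartments, 34 had a lower ratio.

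The second Period gene, Per2, was lower by less. It stood at 14.6 CPM (13.7 to 15.5) with β-glucan and 19.7 CPM (18.6 to 20.9) with PBS, from 950 and 1191 UMIs, a log2 ratio of -0.44 (-0.56 to -0.31). Per3, a Period gene that the core oscillator is known to tolerate losing, stood at 13.5 CPM (12.7 to 14.5) and 11.8 CPM (10.9 to 12.7), a log2 ratio of 0.20 (0.06 to 0.35). The Period genes therefore did not move as 1 group, with Per1 and Per2 below 0 and Per3 above it.

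The Cryptochromes, the partners of the Period proteins in repression, were both lower. Cry1 stood at 16.2 CPM (15.2 to 17.2) with β-glucan and 20.4 CPM (19.3 to 21.6) with PBS, a log2 ratio of -0.33 (-0.45 to -0.21). Cry2 stood at 16.05 CPM (15.1 to 17.1) and 17.8 CPM (16.8 to 18.9), a log2 ratio of -0.15 (-0.28 to -0.03), which is within 1.2-fold.

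The activators were higher with β-glucan by small margins over the summed compartment, but in cells matched for long-gene UMIs (those of genes outside the gene lists that span 100 kb or more) Arntl was at a log2 ratio of 0.04 and Clock at -0.05. Arntl stood at 159 CPM (156 to 162) against 135 CPM (132 to 138), a log2 ratio of 0.24 (0.20 to 0.28), and Clock at 129 CPM (126 to 132) against 118 CPM (116 to 121), a log2 ratio of 0.13 (0.08 to 0.17). The REV-ERB genes, whose proteins repress Arntl, were higher over the summed compartment as well. In the cells matched for long-gene UMIs, Nr1d1 was at 0.08 and Nr1d2 at 0.03. Nr1d1 stood at 29.0 CPM (27.7 to 30.4) against 26.3 CPM (25.02 to 27.6), a log2 ratio of 0.14 (0.05 to 0.24), and Nr1d2 at 56.2 CPM (54.4 to 58.1) against 49.2 CPM (47.4 to 51.0), a log2 ratio of 0.19 (0.12 to 0.26). The level of Dbp, a D-box factor and a direct target of Clock and Arntl, was 16.5 CPM (15.5 to 17.5) against 15.02 CPM (14.1 to 16.03), a log2 ratio of 0.13 (0.00 to 0.26). No activator, REV-ERB gene or Dbp reached 1.2-fold.

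Over the 10 genes, 3 were lower past 1.2-fold (Per1, Per2 and Cry1) and 0 were higher, while 4 were below and 6 above a log2 ratio of 0. Of all 9809 genes, 4.42% were lower past 1.2-fold and 6.85% were higher. The median log2 ratio was 0.13 over the clock genes and 0.03 over all genes. Since the genes were chosen with these ratios known, nothing is read from the comparison with the background.

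**Figure D1:**
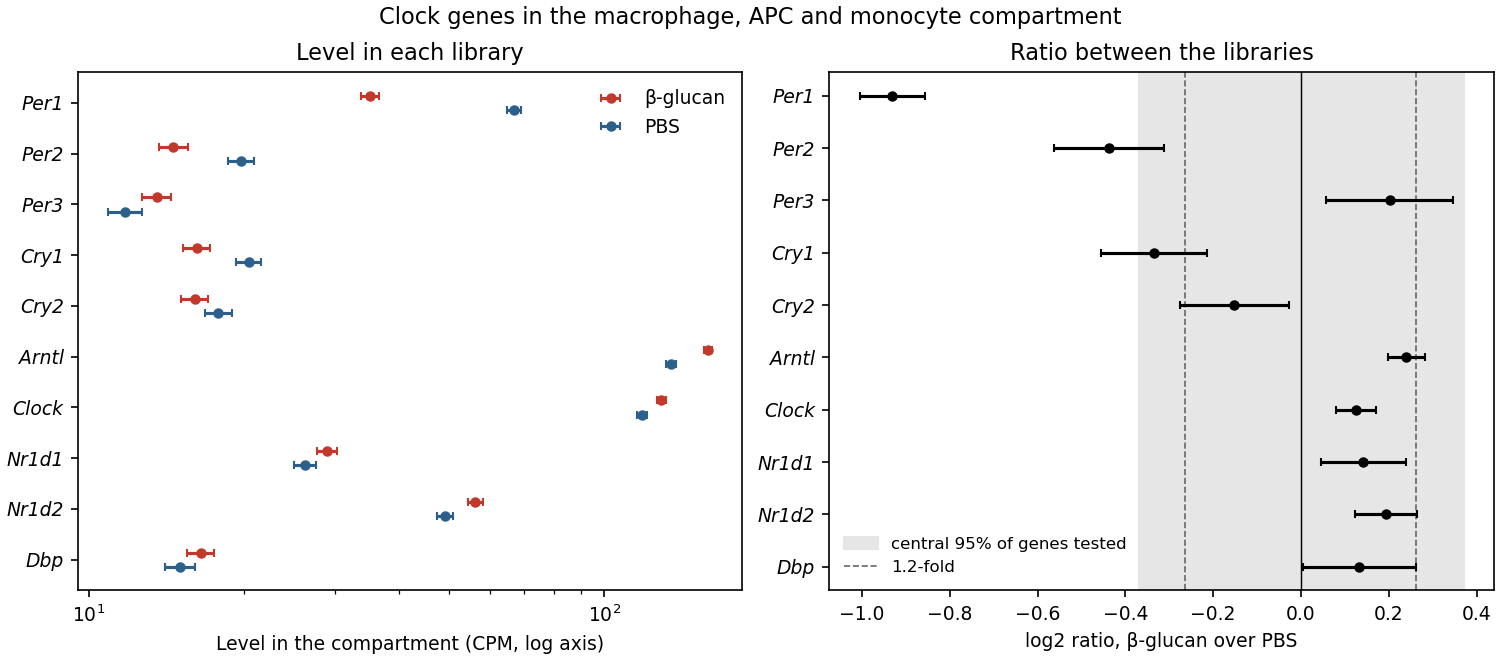
Level of each clock gene in the compartment of each library in CPM on a log axis (left) and the log2 ratio of β-glucan over PBS (right), with points for values and bars for 95% intervals of counting error. Per1 lies at -0.93 and Per2 at -0.44, outside the grey band that holds the central 95% of the 9809 genes, Cry1 at -0.33 lies past the dashed 1.2-fold line, and the other 7 genes lie between the lines.

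Among cells thinned to 8000 UMIs, which left out 826 cells with β-glucan and 527 with PBS as too shallow, 23.8% had a Per1 UMI with β-glucan and 40.6% with PBS. Before thinning, the shares over all compartment cells, the shallow ones included, were 35.3% and 57.8%. Cells with at least 1 Per1 UMI carried a mean of 1.21 and 1.37 UMIs. At this depth, 0.583% and 2.64% of cells had 3 or more Per1 UMIs. For Per2 the shares were 10.3% and 13.3%, and for Cry1 11.03% and 13.4%. Arntl was found in 56.9% of thinned cells with β-glucan and 52.0% with PBS, with 2.30 and 2.10 UMIs per cell that had any. No cell class in the sort is known to lack these genes, so no background share from free RNA can be set beside these values.

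Within the compartment, 9 clusters held at least 100 cells of each library. Of these, 6 were macrophage-like (cluster 0, led by Nt5e, Spp1 and Cav1, cluster 2 by Ednrb and C4b, cluster 5 by Gpnmb and Apoe, cluster 6 by Rasgef1a, Fxyd2 and Aqp1, cluster 8 by Olr1 and Spp1, and cluster 10 by Plxna4), and cluster 4, led by Ccl17, Dcstamp and Cd209a, was APC-like. Cluster 1, led by Vsig4 and S100b, and cluster 3, led by Gm35154, H2-Aa and Abcg3, were left without a name because markers of another class stood among their 10 leading genes, although all 12 macrophage markers were detected in each. The cells of cluster 10 had a median of 5557.5 UMIs, the lowest of the 9.

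Per1 was lower with β-glucan in all 9 clusters, and the interval left out 0 in each. Its log2 ratio ran from -1.58 in cluster 10 to -0.74 in cluster 6. The 9 levels with β-glucan ran from 24.9 CPM (cluster 8) to 47.6 CPM (cluster 6), with a median of 32.7, and the 9 levels with PBS from 53.3 CPM (cluster 8) to 120 CPM (cluster 10), with a median of 66.1. The ranges did not overlap, so the cluster with the highest Per1 with β-glucan lay below the one with the lowest Per1 with PBS. Of the 9809 genes, 1 showed this pattern (0.0102%), and that gene was Per1. The set was chosen with these ratios known, and the pattern restates the Per1 ratio by cluster, so nothing is read from this share. The clusters come from the same 2 libraries and are not replicates of the pre-treatment.

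Per2 was lower in all 9 clusters, with 7 intervals that left out 0, and its log2 ratio ran from -0.75 in cluster 6 to -0.29 in cluster 0. Cry1 was lower in all 9 as well, but only 2 intervals left out 0, and its log2 ratio ran from -0.72 in cluster 4 to -0.01 in cluster 5. The level ranges of both genes overlapped between the libraries, at 9.31 to 23.1 CPM with β-glucan and 13.7 to 29.7 CPM with PBS for Per2, and at 10.6 to 22.3 CPM and 13.7 to 26.2 CPM for Cry1. Of the 9809 genes, 3.8% were lower in each of the 9 clusters and 6.32% were higher in each.

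No clock gene was higher in all 9 clusters. Arntl and Nr1d2 were higher in 8, Clock and Nr1d1 in 7, Per3 and Dbp in 5 and Cry2 in 3. The exception for Arntl was cluster 1, with a log2 ratio of -0.15 and an interval below 0, and Nr1d1 was lowest in the same cluster at -0.21, also with an interval below 0. Nr1d1 was highest in clusters 2 and 6, at 0.43 in each, and Arntl in cluster 10, at 0.56. The ratios of Clock lay between -0.03 and 0.12 in the 9 clusters and no interval left out 0, although its ratio over the summed compartment was 0.13 with an interval above 0. Averaged over the 9 clusters with the same weight for each, Clock was at 0.05, Per3 at 0.04 and Dbp at 0.02. In that average, added after seeing the data, Arntl was at 0.19, Nr1d1 at 0.17 and Nr1d2 at 0.10.

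**Figure D2:**
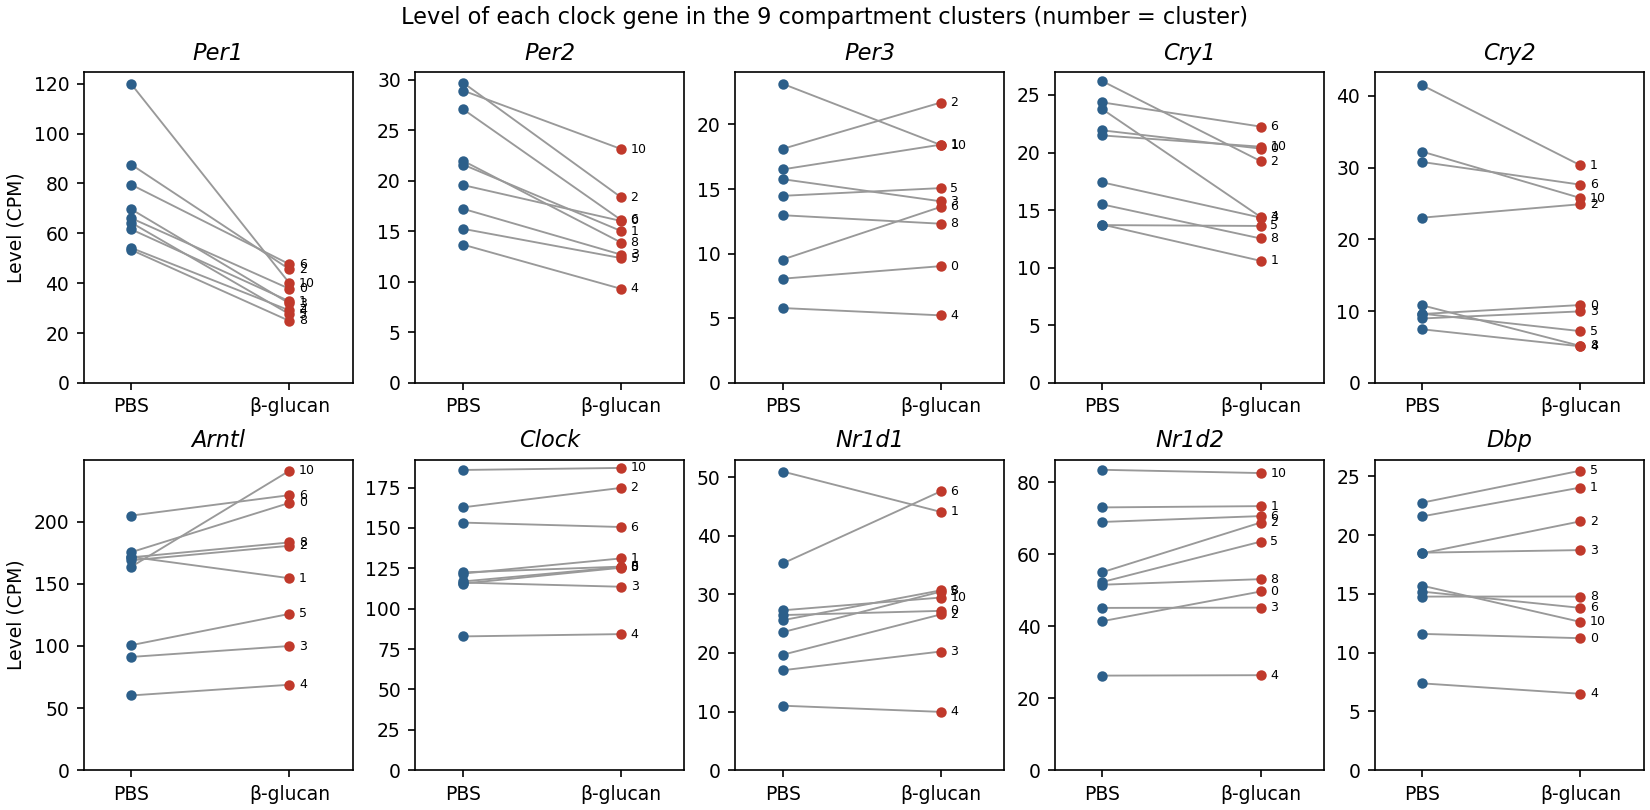
Level in CPM of each clock gene in the 9 compartment clusters, with PBS on the left and β-glucan on the right of each panel and a line for each cluster. All 9 Per1 lines slope down from PBS (53.3 to 120 CPM) to β-glucan (24.9 to 47.6 CPM), all lines of Per2 and Cry1 slope down with overlapping ranges, and the lines of the other genes run both ways.

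Levels of the clock genes also differed between the clusters. The APC-like cluster 4 had the lowest level of Per2, Per3, Cry2, Arntl, Clock, Nr1d1, Nr1d2 and Dbp among the 9 clusters in both libraries. It held 363 of the 4597 compartment cells with β-glucan and 513 of the 3666 with PBS. The summed ratios therefore also carry this difference in the mix of clusters. The averages over the 9 clusters given above weigh each cluster alike, but they also leave out the small clusters. The part of the mix alone in the summed ratios was not tested. With PBS, Arntl was at 60.1 CPM there and at 205 CPM in cluster 6, and Nr1d1 at 10.996 CPM there and at 50.9 CPM in cluster 1, the Vsig4 and S100b cluster. Cry2 was highest in cluster 1 in both libraries, at 30.3 CPM with β-glucan and 41.5 CPM with PBS, and its level ran over 5.95-fold and 5.55-fold between clusters. Per1 had its lowest level in cluster 8 in both libraries, at 24.9 CPM with β-glucan and 53.3 CPM with PBS. Those intervals overlapped the ones of cluster 4, where Per1 was at 29.1 and 54.1 CPM. The small Clec9a and Xcr1 cluster, also APC-like with 44 and 34 cells, had Arntl at 28.8 and 10.5 CPM. Cluster 17, led by Arg1 and Slc7a2, held 83 PBS cells and 0 β-glucan cells, and had Per1 at 76.1 CPM and Nr1d1 at 48.2 CPM.

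Outside the compartment, 7 classes held at least 50 cells of each library, namely neutrophil-like, T cell-like, NK cell-like, B cell-like, basophil/mast cell-like, proliferating and stromal-like cells. The sort was for CD45+CD11b+ cells, so lymphoid and stromal cells are cells that passed the gate all the same. Per1 was lower with β-glucan in all 7, and in 6 of them the interval left out 0. The largest value came from basophil/mast-like cells, at 42.6 CPM with β-glucan and 106 CPM with PBS (log2 ratio -1.31, -2.07 to -0.59), from 25 and 49 UMIs. Neutrophil-like cells had the highest Per1 of all classes in both libraries, at 78.2 CPM (69.3 to 87.9) and 155 CPM (136 to 175), a log2 ratio of -0.98 (-1.24 to -0.73). With PBS that interval overlapped the one of basophil/mast-like cells (78.4 to 140 CPM), and with β-glucan it stood apart from the next class, T cell-like cells. The T cell-like class came nearest to no difference, at 47.8 and 55.7 CPM (log2 ratio -0.22, -0.73 to 0.28). Of 7504 genes that averaged 20 CPM or more over these classes, 1.84% were lower in each of the 7 classes. In clusters with fewer than 50 cells in a library, Per1 was not always lower with β-glucan. Monocyte-like cluster 19, part of the compartment, had 67.0 CPM with β-glucan and 55.1 CPM with PBS, from 13 and 17 UMIs. T cell-like cluster 16 had 44.0 and 42.6 CPM, endothelial-like cluster 20 had 49.0 and 40.2 CPM, and cluster 18 had 22.8 and 40.5 CPM. The intervals of the 2 libraries overlapped in each.

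The other genes split by class. Per2 was lower in 5 of 7 classes, with intervals below 0 in T cell-like, NK cell-like and basophil/mast-like cells from at most 18 UMIs per library, while neutrophil-like cells had 27.4 and 25.5 CPM (log2 ratio 0.10, -0.44 to 0.67). Cry1 was lower in neutrophil-like cells, at 19.5 and 36.0 CPM (log2 ratio -0.88, -1.40 to -0.35), and in stromal-like cells, at 20.9 and 33.6 CPM (a log2 ratio of -0.68), and its interval held 0 in the other 5. Nr1d1 was higher in 7 of 7 classes, with intervals above 0 in neutrophil-like cells (21.5 and 8.08 CPM, log2 ratio 1.41, 0.55 to 2.39) and stromal-like cells (63.6 and 32.5 CPM, log2 ratio 0.97, 0.53 to 1.42). Dbp had intervals above 0 in the same pair of classes, at 13.4 and 6.83 CPM in neutrophil-like cells (0.97, 0.01 to 2.07) and at 23.7 and 11.03 CPM in stromal-like cells (1.11, 0.35 to 1.92). Neutrophil-like and stromal-like cells thus both had Per1 and Cry1 lower and Nr1d1 and Dbp higher with β-glucan, each past the counting error of 1 library per group. With β-glucan the compartment had Per1 at 35.1, Cry1 at 16.2, Nr1d1 at 29.0 and Dbp at 16.5 CPM. For each of these genes, the neutrophil-like level with β-glucan lay between that compartment level and the neutrophil-like level with PBS. Doublets were kept, and the part of compartment RNA in the neutrophil-like values was not tested. In neutrophil-like cells the intervals of Clock (0.44, 0.13 to 0.77) and Nr1d2 (0.86, 0.31 to 1.44) also lay above 0. The shares of all genes higher in each of the 7 classes, or with intervals that left out 0 in a class, were not computed. Nothing is therefore read from these counts. Whether the ratios differ between cell classes was not tested.

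**Figure D3:**
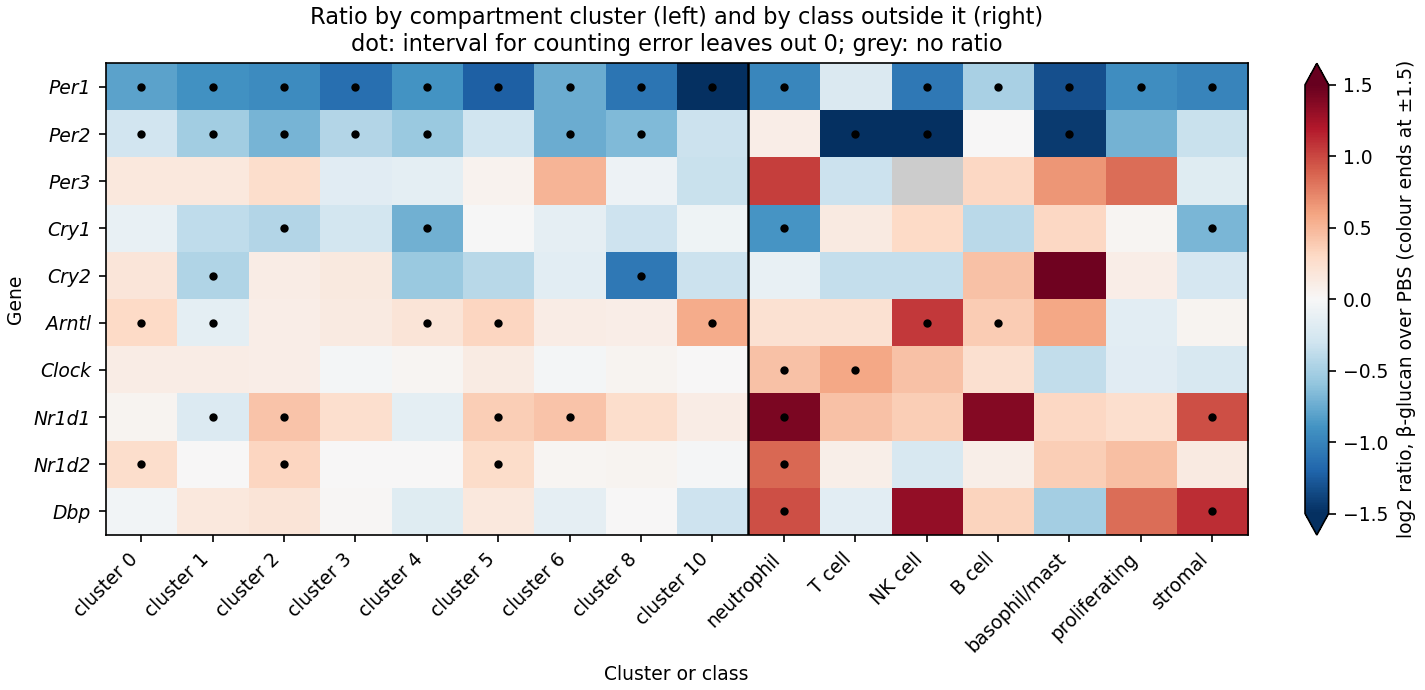
Log2 ratio of β-glucan over PBS for each clock gene (rows) in 9 compartment clusters and 7 classes outside the compartment (columns), in colour that ends at ±1.5, with a dot where the interval of counting error leaves out 0. The Per1 row is blue in all 16 columns, the Per2 and Cry1 rows are blue in the 9 clusters and mixed outside, and Nr1d1 is red in all 7 classes.

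Cell classes also differed in level. Cry2 was highest in stromal-like cells in both libraries, at 82.1 CPM (71.2 to 94.2) with β-glucan and 97.6 CPM (83.7 to 113) with PBS, and the next class, the compartment, was at 16.05 and 17.8 CPM with intervals that did not overlap those. Cry1 was highest in T cell-like cells, at 86.5 CPM (70.7 to 105) and 79.1 CPM (65.3 to 94.95), again apart from the next class in both libraries (39.3 CPM in NK cell-like cells with β-glucan and 36.0 CPM in neutrophil-like cells with PBS). Per3 was highest in stromal-like cells, at 28.6 and 32.5 CPM, and stood apart from the next class with PBS only. For Arntl, T cell-like cells led (172 and 147 CPM) and the compartment followed (159 and 135 CPM), with overlapping intervals in both libraries. For Per2, Clock, Nr1d1, Nr1d2 and Dbp the highest and the next class also overlapped in both libraries. Between neighbours in the order of the 8 groups of cells, at most 2 of the 7 steps had intervals that did not overlap, for any gene in either library.

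Over the 18 sums of 1 cluster in 1 library, levels of clock genes were correlated to different degrees, which is given as a description because the sums share libraries, depth and cell types. On log2(CPM + 1), Per1 and Per2 had a Pearson r of 0.79, Arntl and Clock 0.79, Nr1d1 and Nr1d2 0.84, and Clock and Nr1d2 0.87, whereas Per1 and Arntl had 0.11 and Per1 and Nr1d1 0.02. Within 1 library, over 9 clusters, Per1 and Arntl had an r of 0.56 with β-glucan and 0.39 with PBS, and Per1 and Per2 had 0.67 and 0.72.

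Among 6755 genes that averaged 20 CPM or more, those most like Per1 were Fkbp5 (r = 0.93), an inhibitor of the glucocorticoid receptor that the receptor itself induces, Tsc22d3 (0.83), which encodes the glucocorticoid-induced leucine zipper protein GILZ, and the splicing factor gene Srsf5 (0.83). Within a library, over 9 clusters, r between Per1 and Fkbp5 was 0.81 with β-glucan and 0.88 with PBS. For Tsc22d3 it was 0.79 and 0.78, and for Srsf5 0.68 and 0.69. The ranking ran over both libraries, so genes that share the library difference of Per1 can rank high by it. No ranking within a library was made. Tsc22d3 was also the gene most like Per2 (r = 0.90), followed by Adgrg6 (0.85). The genes most like Cry1 were Tiparp (0.88), Ppp1r15b (0.83) and Rfx2 (0.82). Arntl was most like Mfsd6 (0.93), Ppm1a (0.92) and Rora (0.91), the last of which encodes the nuclear receptor RORα, an activator of Arntl. Nr1d2 was most like Rab6b (0.96), Tef (0.96), a D-box factor of the same family as Dbp, and Rin2 (0.96). For Clock they were Rbms1, Ttc7b and Fam126b (0.97, 0.96 and 0.96), for Nr1d1 Slc6a6, Wipi1 and Ankrd40 (0.97, 0.95 and 0.94), for Dbp Fblim1 and Ctsa (0.95 and 0.94), for Per3 Cables1, Cmklr1 and P2ry12 (0.96, 0.94 and 0.94), and for Cry2 Zcchc14, Smad5 and Abcd4 (0.96, 0.95 and 0.95).

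The wider clock was read from lists of genes around it, 74 genes in all, of which 65 passed 5 CPM, 3 were higher and 22 lower past 1.2-fold. The lists were chosen with earlier results of these data known, and of all 9809 genes tested 6.85% were higher and 4.42% lower past 1.2-fold, with a median log2 ratio of 0.03. Of 12 other clock transcription factors, 6 were measured, with 1 higher and 2 lower past 1.2-fold and a median log2 ratio of 0.20. Bhlhe40, which encodes the repressor DEC1, was lower at 102 CPM with β-glucan and 150 CPM with PBS (log2 ratio -0.56, -0.60 to -0.51), whereas its relative Bhlhe41 was higher at 14.3 and 10.3 CPM (0.47, 0.33 to 0.62). Nfil3, which encodes a repressor that competes with Dbp for D-boxes, was lower at 10.3 and 12.8 CPM (-0.32, -0.47 to -0.17), and the D-box activator gene Tef stood at 31.1 and 27.2 CPM (0.19, 0.10 to 0.29). Bhlhe40 was lower in 7 of the 9 clusters and Nfil3 in 6, and Bhlhe41 was higher in 8. Of the 9024 PBS UMIs of Bhlhe40, 2992 came from the APC-like cluster 4 and 729 from cluster 17, which held PBS cells only. Its log2 ratio was -0.79 in cluster 4, and in the rest of the 9 clusters it ran from -0.39 (cluster 8) to 0.09 (cluster 2).

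Of 13 genes for kinases, ubiquitin ligases and a deacetylase that act on clock proteins, 12 were measured and 0 were past 1.2-fold in either direction, with a median of 0.06 and a range of -0.09 to 0.19. Among 12 genes that cycle in many tissues, 1 was higher and 3 were lower, with a median of -0.05. Usp2, which encodes a ubiquitin protease and is a known clock target, was higher at 16.5 and 11.9 CPM (0.48, 0.34 to 0.62). Wee1, which encodes the clock-controlled kinase that holds back entry into mitosis, was lower at 65.6 and 86.7 CPM (-0.40, -0.46 to -0.35), and Rbm3, a cold-induced RNA-binding protein gene, at 478 and 588 CPM (-0.30, -0.32 to -0.28). Wee1, Rbm3 and Tsc22d3 were lower in all 9 clusters and in all 7 classes outside.

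Lists of genes known to respond to glucocorticoid and to cAMP, both inputs to Per1, were read against the same background of 4.42% lower and a median of 0.03 over all genes, and they too were chosen with earlier results known. In the glucocorticoid response list, 4 of 10 measured genes were lower and 0 higher, with a median of -0.15. These were Errfi1 at 36.6 and 60.1 CPM (-0.71, -0.79 to -0.64), Fkbp5 at 133 and 214 CPM (-0.69, -0.73 to -0.65), Dusp1 at 245 and 344 CPM (-0.49, -0.52 to -0.46) and Tsc22d3 at 288 and 386 CPM (-0.42, -0.45 to -0.40). In the same list Cd163 and Zbtb16 were at log2 ratios of 0.25 and 0.23, on the other side of 0. In the list of cAMP and CREB targets, 6 of 8 were lower and 0 higher, with a median of -0.46, and the lowest were the phosphodiesterase gene Pde4b at 34.0 and 60.6 CPM (-0.83, -0.91 to -0.76), the nuclear receptor gene Nr4a2 at 32.0 and 55.1 CPM (-0.78, -0.86 to -0.70) and the kinase gene Sik1 at 47.6 and 71.4 CPM (-0.58, -0.65 to -0.52), each lower in 9 of 9 clusters. Nr4a1 (-0.50), Nr4a3 (-0.43) and Fosb (-0.32) were the other 3 that were lower.

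In the immediate-early and stress list, which holds genes that tissue digestion is also known to induce, 9 of 19 were lower and 0 higher, with a median of -0.21. The lowest 5 were Nr4a1 (-0.50), Dusp1 (-0.49), Klf4 (-0.47), Btg2 (-0.42) and Jund (-0.40), while Fos was at 459 and 455 CPM (0.02) and Jun at 182 and 157 CPM (0.22). Of 4 genes known as REV-ERB targets in macrophages, 3 were measured. The fractalkine receptor gene Cx3cr1 was higher at 213 and 166 CPM (0.36, 0.32 to 0.40), and the chemokine gene Ccl2 lower at 37.6 and 60.9 CPM (-0.70, -0.77 to -0.62). Mmp9 was lower at 0.783 and 10.7 CPM (-3.77, -4.21 to -3.36), but 345 of its 645 PBS UMIs came from the 34 PBS cells of the Clec9a and Xcr1 cluster and 209 from cluster 0. The lists share genes (Tsc22d3, Dusp1, Nr4a1, Fosb and Klf9 stand in 2 each), and their part in the clock gene ratios was not tested.

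**Figure D4:**
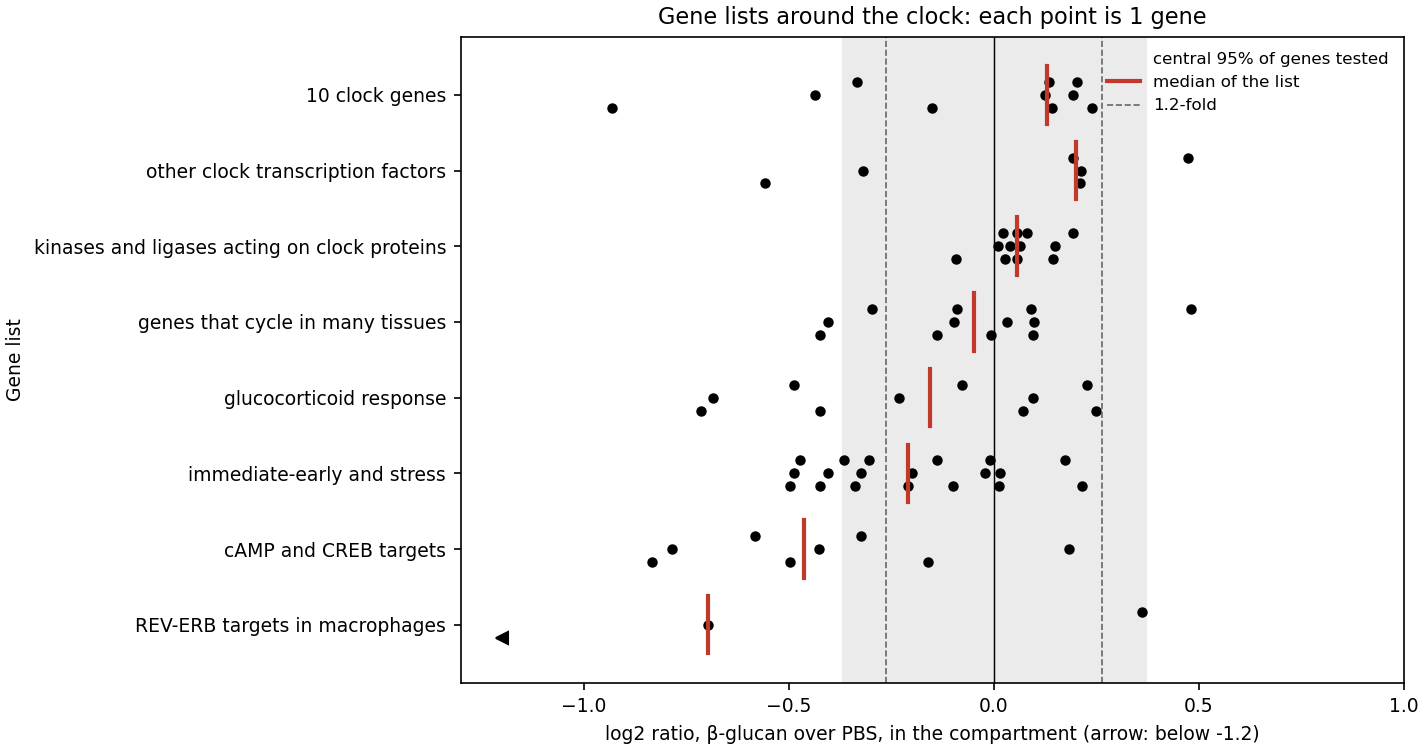
Log2 ratio of β-glucan over PBS in the compartment for each gene that averaged 5 CPM or more, by list, with a red line at the median of each list, dashed lines at 1.2-fold and a grey band for the central 95% of all genes tested. The clock genes have their median at 0.13 with Per1 at -0.93, the cAMP and CREB list has its median at -0.46, and the arrow is Mmp9 at -3.77.

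Several properties of the libraries moved with the clock genes. Genes of longer span had higher ratios, with a median log2 ratio of -0.06 over 1847 genes under 10 kb and 0.14 over 1372 genes of at least 100 kb. With the gene lists left out and no minimum level, 3176 genes of at least 100 kb took 19.4% of the compartment's UMIs with β-glucan and 17.6% with PBS. Arntl (chromosome 7, 112806152 to 112914735 in GRCm39) spans 109 kb and Clock (chromosome 5, 76342860 to 76452846) 110 kb, whereas Per1 (chromosome 11, 68986035 to 69002300) spans 16.3 kb and the other members between 5.12 and 53.7 kb. When cells of both libraries were matched within clusters on that share, leaving 3145 cells of each, Arntl moved from 0.24 to 0.04 and Clock from 0.13 to -0.05, Nr1d2 from 0.19 to 0.03 and Per3 from 0.20 to -0.02. The lower members stayed lower, with Per1 at -0.98, Per2 at -0.65, Cry1 at -0.32 and Cry2 at -0.30. In cells matched on the share of long-gene UMIs the 6 members above 0 in the main comparison thus lay between -0.05 and 0.08. The log2 ratio of Per1 was -0.93 before and -0.98 after this matching. This matching and those below took equal numbers of cells of both libraries from each cluster. They therefore also evened the mix of clusters and left out cluster 17, which held no β-glucan cell. Why the ratios moved was not tested.

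Matching on the immediate-early and stress share (0.387% of UMIs with β-glucan and 0.451% with PBS) left Per1 at -0.92, Per2 at -0.40 and Cry1 at -0.24. Matching on the glucocorticoid list share (0.169% and 0.195%), an alternative added after seeing the data, left them at -0.82, -0.48 and -0.25, so Cry1 was within 1.2-fold after either matching. After the immediate-early matching Per3 was at 0.06, Arntl at 0.16, Clock at 0.06, Nr1d1 at 0.11, Nr1d2 at 0.16 and Dbp at 0.02. After the glucocorticoid list matching the same genes were at 0.16, 0.15, 0.08, 0.19, 0.14 and 0.08. The glucocorticoid list share sums 11 genes, among them Cd163 (330 and 278 CPM) and Mt1 (307 and 324 CPM). Cells with equal shares can thus still differ in single genes such as Fkbp5 or Errfi1. The summed neutrophil markers were at 61.4 CPM in the β-glucan compartment and 142 CPM in the PBS compartment, and of the 7 markers S100a8 and S100a9 differed most in CPM. The small monocyte-like cluster of 23 and 25 cells had S100a8 at 428 and 8308 CPM, and within the 9 clusters the marker sum ran from 12.3 to 165 CPM with β-glucan and from 9.35 to 96.7 CPM with PBS. The part of these markers in the Per1 ratio was not tested. The summed APC markers, led by Cd74, were at 7405 CPM with β-glucan and 11067 CPM with PBS, and their part in the ratios was not tested. In the APC-like cluster 4, Per1 was at 29.1 CPM with β-glucan and 54.1 CPM with PBS (-0.90).

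**Figure D5:**
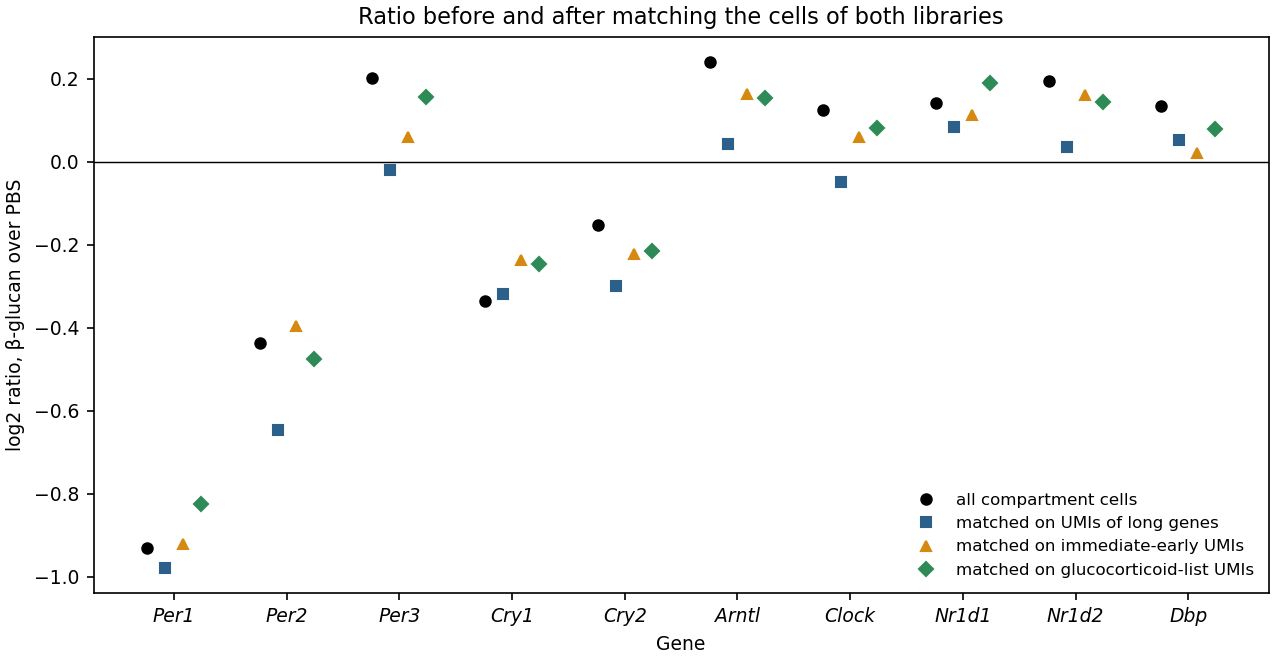
Log2 ratio of β-glucan over PBS for each clock gene in all compartment cells (circles) and after both libraries' cells were matched within clusters on UMIs of genes outside the gene lists that span 100 kb or more (squares), of immediate-early genes (triangles) and of the glucocorticoid list (diamonds). Per1 stays between -0.98 and -0.82, and Arntl drops from 0.24 to 0.04 in the matching on long genes.

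None of the 10 genes overlapped another gene of the count tables on its own strand, and genes outside those tables were not considered. On the other strand, Nr1d1 (chromosome 11, 98658752 to 98666188) overlaps Thra, and Per3, Cry2, Arntl, Clock and Dbp each overlap at least 1 gene. Whether counting used the strand is not stated in the sources used here. Per1, Per2, Cry1 and Nr1d2 overlapped no gene of the count tables on either strand.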

How the data were processed

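The authors deposited UMI counts per gene and barcode, without normalization, made with Cell Ranger 7.0.0 per the labels, on GRCm39 with Ensembl 104 genes. Whether intronic reads were counted is not given in the sources used here. The 12956 barcodes equal the number of cells the study describes, and its stated filter left 10249.

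Cells were clustered with Seurat 5.3.0 (sctransform 0.4.2, 3000 variable genes, 30 principal components, 20 neighbours, resolution 0.7) without integration, in R 4.3.3. The gene lists and 16 genes that the study compares were left out of the principal components. A cluster was named for the class with the highest scaled marker level, given at least 3 markers each found in 25% of its cells, and stayed unnamed where markers of another class led. Scrublet (scanpy 1.11.5, Python 3.11.15) called 0 cells with β-glucan and 2 with PBS (0.0439%), so the caller had not worked and doublets were kept.

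Counts were summed per library and cluster, scaled to CPM, and compared as a log2 ratio with an exact conditional binomial (Clopper-Pearson) 95% interval. Poisson intervals were exact. No p-value was computed, since a group is 1 library. The scripts were tested on simulated data. Members and lists were chosen with earlier results of these data known. Named genes were the 10 members, the genes of the other lists past 1.2-fold (at most 5 per direction and list, plus listed genes given for contrast) and the 3 genes most like each member, of which 2 are not reported here. Those given for contrast, and the library properties set beside the ratios, were chosen after their values were seen. Promoter windows were read from GRCm39 with GENCODE M39, a later annotation than that of the counts, in which 31870 of 32524 genes were found by ID. The alternatives were 3 other filters on cells (none, a stricter one, and without the highest Scrublet scores), TMM scaling (edgeR 4.0.16), library totals that leave out mitochondrial and ribosomal protein genes, equal weight per cell or per cluster, thinning to 8000 UMIs, all cells of the sort, resolution 0.5 or 1, 20 principal components, the gene lists kept in the components, cells matched on long-gene, immediate-early or glucocorticoid-list UMIs, no cluster of 1 library, and other fold and CPM thresholds.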

Additional observations from a re-analysis of the deposited data

How the results depend on the processing

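The count of 3 lower clock genes became 1 (Per1) at 1.5-fold and 2 (Per1 and Per2) after matching on immediate-early or glucocorticoid-list UMIs, and 4 (with Cry2) at 1.1-fold and after matching on long-gene UMIs. The count of 0 higher ones became 4 at 1.1-fold (Per3, Arntl, Nr1d1 and Nr1d2) and 1 (Arntl) in cells thinned to 8000 UMIs. Shares over all genes were computed at 1.2-fold in the main comparison only, so none stands beside these counts. Over all genes tested, the median absolute log2 ratio in the main comparison was 0.10. The 25 of 65 list genes past 1.2-fold became 16 of 42 at a minimum of 50 CPM, where no share over all genes was computed. Of 180 ratios of single members over 18 alternatives, 159 stayed within the main interval, 16 moved beyond it on the same side of 0 and 5 reversed. These ratios are not independent of each other. The other resolutions, 20 principal components and the kept gene lists summed 4582 to 4597 cells with β-glucan, against 4597 in the main comparison. TMM scaling and the other library totals shift all genes by the same amount. Per1 ran from -1.05 to -0.82, Per2 from -0.65 to -0.40 and Cry1 from -0.36 to -0.24. With equal weight per cluster Per3 was at -0.023, Cry2 at 0.030 and Nr1d2 at -0.035. These averages take in clusters 18 (44 cells with β-glucan and 34 with PBS) and 19 (23 and 25 cells), and over the 9 clusters of at least 100 cells per library, an alternative added after seeing the data, the same genes were at 0.04, -0.24 and 0.10, on the side of 0 they had in the summed compartment. With cells matched on long-gene UMIs Per3 was at -0.020 and Clock at -0.049. The cause of these last values was not tested. Leaving out cluster 17, whose cells all came from the PBS library, was added after seeing the data and reversed none of the 10. No paired analysis was possible because each group is 1 library. Depth limits the classes outside the compartment most, where Per3 had 0 UMIs in the PBS NK cell-like cells.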
